A study of Mus musculus with 4 samples.

Results

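Transcripts of 8 genes that mark naive T cells and govern their homing, Ccr7, S1pr1, Il7r, Klf2, Lef1, Tcf7, Dapl1 and Igfbp4, were followed through circulating mononuclear cells of mice. The genes were taken by symbol from the 32285 genes of the deposited matrices, all 8 were found, and the level of each was taken in CD8 T cells, other T cells, B cells, natural killer (NK) cells and monocytes. Blood came from 2 inbred strains, which the labels call BL/6 and SM/J, at 12 and 20 months of age. The labels name no treatment, transgene, sex or number of animals. Each strain and age gave 1 library, written here as BL/6 12, BL/6 20, SM/J 12 and SM/J 20, and both ages of a strain were tagged and run together as 1 droplet (10x Genomics 3') sample. The study concerned ageing and genetic background, so the comparisons are 20 against 12 months within each strain and SM/J against BL/6 within each age. Because of this, a strain difference and a 10x run difference cannot be told apart. No library had a replicate, so no comparison carries a test.

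Naive T cells circulate between blood and lymphoid organs. Ccr7, a chemokine receptor for the ligands Ccl19 and Ccl21, brings them into lymph nodes, and S1pr1, a receptor for sphingosine 1-phosphate, brings them out again. Klf2 is a transcription factor of quiescent T cells that drives S1pr1. Il7r encodes the alpha chain of the receptor for interleukin 7, the main survival cytokine of naive and memory T cells. Lef1 and Tcf7 are related transcription factors of the Wnt pathway that establish the T lineage and are kept in naive and long-lived memory cells. Dapl1 and Igfbp4 (a secreted binding protein for insulin-like growth factors) are known mainly as transcripts that mark naive T cells in the mouse.

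T cells were cells with at least 2 unique molecular identifiers (UMIs, counted molecules) of Cd3d, Cd3e and Cd3g together. CD8 T cells were those with at least 1 UMI of Cd8a or Cd8b1, and the other T cells had none. The CD8 class held 210, 133, 111 and 56 cells in BL/6 12, BL/6 20, SM/J 12 and SM/J 20, and the other T class held 220, 370, 230 and 164. CD8 T cells were 48.8% of T cells in BL/6 12 and between 25.5% and 32.6% in the other libraries. Median depth in CD8 T cells was 5099.5, 8236, 6658 and 5834 UMIs per cell in the same order, and in other T cells it lay between 3713.5 and 5128. The whole libraries summed to between 14250603 and 30627357 UMIs. Libraries of the same strain shared no cell barcode, and pairs of libraries across strains shared between 1 and 3. Summed markers of B cells stood at 13.2 to 45.9 CPM (UMIs of the genes per 1000000 UMIs of the class) in the T classes. Summed NK markers (Ncr1, Klrb1c and Klre1) stood at 190 CPM in CD8 T cells and 116 CPM in other T cells of BL/6 12, with Ncr1 at 0 in the former, and at 12.1 to 44.9 CPM elsewhere. In all, 8 T cells, namely 1 CD8 T cell in BL/6 20, 1 in SM/J 20, 2 other T cells in SM/J 12 and 4 in SM/J 20, carried at least 4 UMIs of monocyte markers (Lyz2, Csf1r, Cd68 and Ms4a6c). They stayed in the T classes because the monocyte gate passes over cells with 2 or more UMIs of Prg4 and Alox15, genes of macrophages of the body cavities, which all 8 had. These few cells held 12.6% of all UMIs of the other T class of SM/J 20 and 9.08% of those of its CD8 class. Values that turn on them are given with and without them.

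Levels are CPM of a gene within its class. A ratio is log2 of (CPM + 1) over (CPM + 1), given with an exact 95% interval for counting error only. The 3 tag oligos of each library split its cells into 3 aliquots, which no source used here calls animals, and the range over aliquots is given beside each level. Of the deposited cells, 20 in BL/6 12 and 29 in SM/J 12 belonged to no aliquot, and those that were kept enter the class level only. A ratio of at least 1.5-fold in either direction was counted as a difference, and it is said where the aliquots of both libraries did not overlap.

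Across the 5 cell classes the genes fell into those confined largely to T cells and those shared with other lymphocytes. Dapl1 had no UMI in any NK cell of the 4 libraries, and the depth allows up to 6.23, 11.5, 21.4 and 16.8 CPM there. In B cells and monocytes Dapl1 was at most 0.804 CPM. Tcf7 and Il7r were also near absent from B cells, at no more than 3.94 and 2.78 CPM, while NK cells held 19.2 to 47.8 CPM of Tcf7 and 28.5 to 108 CPM of Lef1. S1pr1 was well expressed in B cells (156 to 225 CPM) but reached only 27.0 CPM in NK cells, with 0 UMIs in those of SM/J 12. Klf2 was abundant in every class of every library, from 564 CPM in monocytes of BL/6 12 to 1848 CPM in B cells of SM/J 12. In all 4 libraries B cells had the highest Klf2 level of the 5 classes, although in both 20-month libraries their aliquots overlapped those of CD8 T cells. Ccr7 was a gene of both T and B cells. In BL/6 12 its order was B cells, other T cells, CD8 T cells, with the first pair overlapping, whereas in the remaining libraries B cells came below both T classes.

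**Figure D1:**
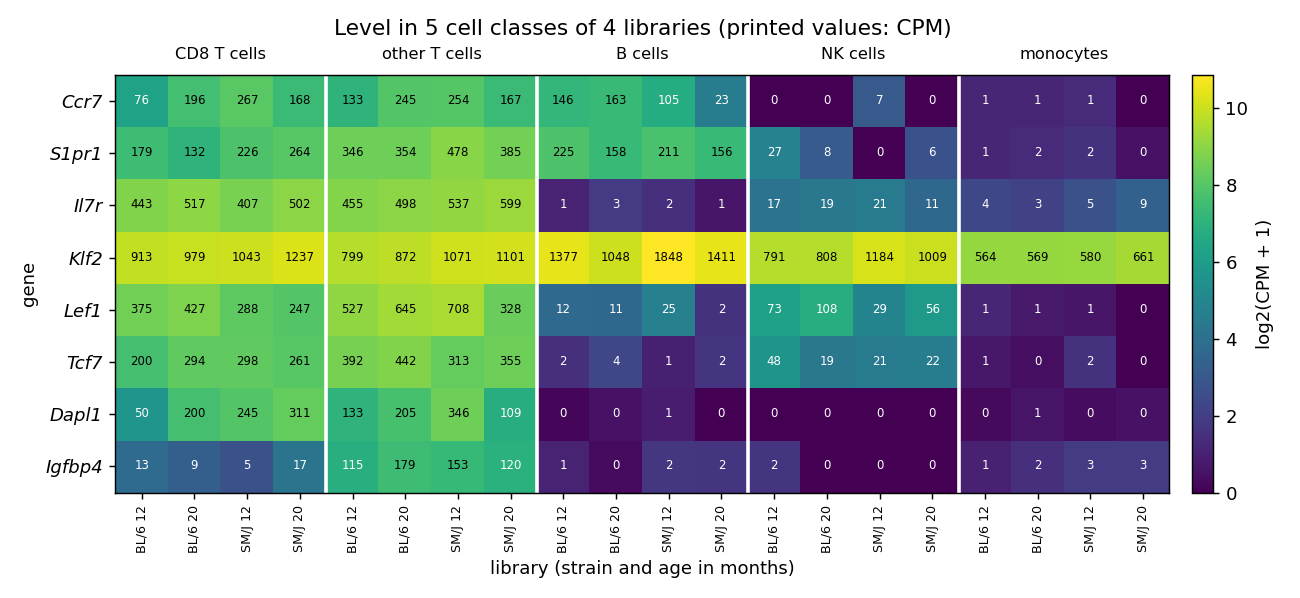
Level of each gene (rows) in 5 cell classes of 4 libraries (columns), coloured by log2(CPM + 1) with the CPM printed in each cell. Klf2 is filled in every class, Ccr7 and S1pr1 in T and B cells, and Dapl1 and Igfbp4 almost only in T cells, Igfbp4 mostly outside the CD8 class.

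On the mouse assembly GRCm38 (mm10, the build in the submitters' processing notes) all 8 are protein-coding genes. Ccr7 lies on the minus strand at chr11:99144196-99155077 and Igfbp4 on the plus strand of the same chromosome at chr11:99041244-99054392, with 89.8 kb between them. Tcf7 is on that chromosome too, at chr11:52252371-52283014. Lef1 (chr3:131110471-131224356) and S1pr1 (chr3:115710433-115715072) share a chromosome. Dapl1 is at chr2:59484653-59505020, Il7r at chr15:9505788-9530176 and Klf2 at chr8:72319033-72321656.

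The 250 bases upstream of a RefSeq start site (GRCm38.p6) were given for 6 of the 8 genes, Ccr7 and S1pr1 not being in the table used. They were searched on both strands for CACCC (the KLF family core), CTTTGA (TCF and LEF) and TGTTTAC (FOXO, factors that act upstream of Klf2 and Il7r). Windows of Dapl1, Igfbp4 and the first of 4 Lef1 start sites are printed because these genes differed most between T classes, strains or ages. Each is printed 5′ to 3′ on the strand of its gene, and capitals mark the motif matches.
Dapl1, chr2:59484403-59484652, plus strand: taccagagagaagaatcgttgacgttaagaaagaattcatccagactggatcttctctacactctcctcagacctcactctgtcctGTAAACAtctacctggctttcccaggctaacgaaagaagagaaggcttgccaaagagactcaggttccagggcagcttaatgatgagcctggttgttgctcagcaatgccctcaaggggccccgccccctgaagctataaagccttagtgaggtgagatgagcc
Igfbp4, chr11:99040994-99041243, plus strand: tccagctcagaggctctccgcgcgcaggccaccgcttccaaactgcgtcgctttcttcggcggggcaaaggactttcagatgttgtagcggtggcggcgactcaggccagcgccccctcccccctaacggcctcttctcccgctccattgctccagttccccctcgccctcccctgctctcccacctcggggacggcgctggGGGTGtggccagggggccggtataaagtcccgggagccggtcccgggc
Lef1, chr3:131110047-131110296, plus strand: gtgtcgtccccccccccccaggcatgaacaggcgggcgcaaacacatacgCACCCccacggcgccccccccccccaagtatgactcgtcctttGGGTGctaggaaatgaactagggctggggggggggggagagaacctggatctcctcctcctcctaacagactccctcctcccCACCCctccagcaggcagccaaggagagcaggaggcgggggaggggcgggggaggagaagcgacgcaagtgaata
The Dapl1 window held the reverse complement of the FOXO letters, GTAAACA, 164 bases before the start, and neither of the other motifs. The Igfbp4 window held the KLF letters 48 bases before the start, and the Lef1 window held them 200, 157 and 75 bases before it. FOXO letters occurred in 3.17% of 32851 windows of the same length genome-wide. The KLF letters were present upstream of 4 of the 6 genes (Igfbp4, Klf2, Lef1 and Tcf7), against 52.0% of all windows. TCF and LEF letters were found only upstream of the fourth Lef1 start site among these genes, and in 13.8% of all windows. No match overlapped another motif, and a match is a run of letters, not a bound site.

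Ccr7, the lymph node entry receptor, differed with age in opposite directions in the 2 strains. In CD8 T cells it stood at 76.2 CPM in BL/6 12 (aliquots 67.2 to 86.4), 196 in BL/6 20 (184 to 208), 267 in SM/J 12 (239 to 286) and 168 in SM/J 20 (117 to 202). Other T cells held 133 (130 to 138), 245 (238 to 259), 254 (227 to 304) and 167 CPM (74.6 to 209). In both classes BL/6 12 was low beside BL/6 20 with no overlap of aliquots, and SM/J 20 was low beside SM/J 12. The log2 ratio of 20 over 12 months in CD8 T cells was 1.35 in BL/6 (1.00 to 1.71) and -0.66 in SM/J (-1.10 to -0.24). In other T cells it was 0.88 in BL/6 (0.62 to 1.15) and -0.60 in SM/J (-0.93 to -0.29). Without the T cells of high monocyte markers the SM/J ratios were -0.57 in CD8 T cells (-1.02 to -0.14) and -0.46 in other T cells (-0.79 to -0.14), which is lower in every aliquot still but short of 1.5-fold. With those cells kept, leaving out 1 aliquot brought the ratios no closer to 0 than -0.45 and -0.38, and keeping mixed cells and doublet calls gave -0.27 in other T cells. The share of CD8 T cells with a Ccr7 UMI was 25.7%, 62.4%, 74.8% and 51.8% in library order, and after thinning each cell to 1000 UMIs it was 7.62%, 18.0%, 22.5% and 14.3%. NK cells, at median depths of 2496 to 4709.5 UMIs, gave unthinned shares of 0% to 1.89%.

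S1pr1, the egress receptor, was lower in CD8 than in other T cells of every library, by 1.93-fold in BL/6 12, 2.66-fold in BL/6 20, 2.11-fold in SM/J 12 and 1.46-fold in SM/J 20, the last with overlapping aliquots. CD8 T cells held 179 CPM in BL/6 12 (158 to 201), 132 in BL/6 20 (110 to 145), 226 in SM/J 12 (199 to 253) and 264 in SM/J 20 (125 to 355). Other T cells held 346 (308 to 370), 354 (340 to 383), 478 (438 to 511) and 385 CPM (345 to 431). The CD8 aliquots of SM/J 20 spread more widely than those of the other libraries, with 1 aliquot of 18 cells far below the other pair. S1pr1 was thus lower at 20 months in BL/6 CD8 T cells (log2 ratio -0.43, -0.74 to -0.13) without reaching 1.5-fold, and in SM/J its interval included 0 (0.22, -0.16 to 0.60). At 20 months the strain ratio in CD8 T cells was 0.99 (0.60 to 1.37), with overlapping aliquots.

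Il7r and Klf2 were the steadiest members. Il7r levels lay between 407 and 517 CPM in CD8 T cells and between 455 and 599 CPM in other T cells of the 4 libraries. Klf2 lay between 913 and 1237 CPM in CD8 T cells and between 799 and 1101 CPM in other T cells. Neither passed 1.5-fold in any of the 4 comparisons in either T class. The largest Il7r ratio was 0.30 (0.03 to 0.58, SM/J CD8 T cells, 20 over 12 months, aliquots apart), and with cells thinned to 1000 UMIs it was -0.30. Without the T cells of high monocyte markers the largest was 0.41 (0.24 to 0.57, other T cells, SM/J over BL/6 at 20 months, aliquots apart). The largest Klf2 ratio was 0.42 (0.29 to 0.55, other T cells, SM/J over BL/6 at 12 months, aliquots apart), and Klf2 was higher in SM/J than in BL/6 in both classes at both ages. The 2 genes also separated CD8 from other T cells little, by at most 1.32-fold for Il7r.

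Lef1 was lower in CD8 T cells than in other T cells of each library, by 1.40-, 1.51-, 2.45- and 1.33-fold in BL/6 12, BL/6 20, SM/J 12 and SM/J 20, the last with overlapping aliquots. Other T cells held 527 CPM in BL/6 12 (502 to 563), 645 in BL/6 20 (635 to 657), 708 in SM/J 12 (671 to 751) and 328 in SM/J 20 (293 to 377). SM/J 20 stood well below every other library and its aliquots did not meet theirs. The log2 ratio of 20 over 12 months in other T cells was -1.11 in SM/J (-1.32 to -0.89) and 0.29 in BL/6 (0.15 to 0.43). Without the T cells of high monocyte markers the SM/J ratio was -0.98 (-1.20 to -0.77). CD8 T cells held 375 (372 to 374), 427 (413 to 435), 288 (262 to 312) and 247 CPM (192 to 303) in library order, so that both SM/J libraries were below both BL/6 libraries. The strain ratio in CD8 T cells was -0.38 at 12 months (-0.62 to -0.14) and -0.79 at 20 months (-1.13 to -0.46), with aliquots apart at both ages.

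Tcf7, the close relative of Lef1, had another order of libraries. With all T cells kept, both BL/6 libraries were above both SM/J libraries in other T cells. Its other T cell levels were 392 CPM in BL/6 12 (357 to 447), 442 in BL/6 20 (415 to 466), 313 in SM/J 12 (304 to 327) and 355 in SM/J 20 (319 to 373). The SM/J ratio of 20 over 12 months was 0.18 (-0.06 to 0.43) where that of Lef1 was -1.11. Without the T cells of high monocyte markers the Tcf7 ratio was 0.34 (0.09 to 0.58) with aliquots apart. SM/J 20 then stood at 399 CPM, just above BL/6 12. CD8 T cells held Tcf7 at 200 (180 to 219), 294 (263 to 313), 298 (270 to 322) and 261 CPM (208 to 320), lowest in BL/6 12. Its BL/6 age ratio there was 0.55 (0.31 to 0.79), just under 1.5-fold, and 0.59 without the T cells of high monocyte markers, just over it.

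Dapl1 had the largest ratios between libraries within a T class among the 7 members compared in both classes. In CD8 T cells it stood at 49.7 CPM in BL/6 12 (32.0 to 69.8), 200 in BL/6 20 (177 to 223), 245 in SM/J 12 (200 to 304) and 311 in SM/J 20 (175 to 409). BL/6 12 was below every other library with no aliquot in common, while the remaining 3 overlapped. The log2 ratio of 20 over 12 months was 1.99 in BL/6 (1.58 to 2.41), and that of SM/J over BL/6 at 12 months was 2.28 (1.86 to 2.71); both share the BL/6 12 library and its low level. With each cell thinned to 1000 UMIs the BL/6 ratio was 3.03. Levels in other T cells were 133 (76.5 to 169), 205 (168 to 255), 346 (257 to 424) and 109 CPM (70.9 to 168), highest in SM/J 12. There the SM/J ratio of 20 over 12 months was -1.66 (-2.02 to -1.30), or -1.48 without the T cells of high monocyte markers, against 0.35 (-0.01 to 0.69) in CD8 T cells of the same libraries. The CD8 ratio was 0.48 (0.13 to 0.83) without such cells, with overlapping aliquots. The CD8 ratio changed sign in 2 of 17 alternative settings. The BL/6 ratio in other T cells was 0.63 (0.36 to 0.90) with overlapping aliquots, and 0.057 with cells thinned to 1000 UMIs. In SM/J 20 Dapl1 was accordingly 2.84-fold higher in CD8 than in other T cells with aliquots apart, and in BL/6 12 it was 2.63-fold lower. The share of CD8 T cells with a Dapl1 UMI was 10.5%, 63.2%, 45.0% and 64.3% in library order, and 2.86%, 18.0%, 21.6% and 16.1% at 1000 UMIs per cell. At 500 UMIs per cell it was 1.90%, 11.3%, 8.11% and 21.4%, so that only the low place of BL/6 12 was kept. No NK cell had one, and at most 0.409% of monocytes did at median depths of 6134.5 to 7137 UMIs.

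Igfbp4 was a transcript of the other T cells. They held 115 CPM in BL/6 12 (94.3 to 138), 179 in BL/6 20 (143 to 202), 153 in SM/J 12 (125 to 172) and 120 in SM/J 20 (102 to 144). CD8 T cells had 16, 10, 4 and 6 UMIs in all, or 5.44 to 16.8 CPM. The gene was lower in CD8 T cells by 8.41-fold (5.14 to 14.4) in BL/6 12, 18.4-fold (10.4 to 34.9) in BL/6 20, 23.9-fold (10.1 to 62.9) in SM/J 12 and 6.77-fold (3.08 to 17.3) in SM/J 20, with aliquots apart in all 4. This was the largest and most repeated difference between the T classes among the 8 genes. Within other T cells it was higher at 20 months in BL/6 (log2 ratio 0.63, 0.34 to 0.92, aliquots apart) and its SM/J interval included 0 (-0.35, -0.74 to 0.04). With cells thinned to 1000 UMIs these ratios were 0.20, under 1.5-fold, and 0.07. The CD8 counts are too few for any comparison between libraries.

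**Figure D2:**
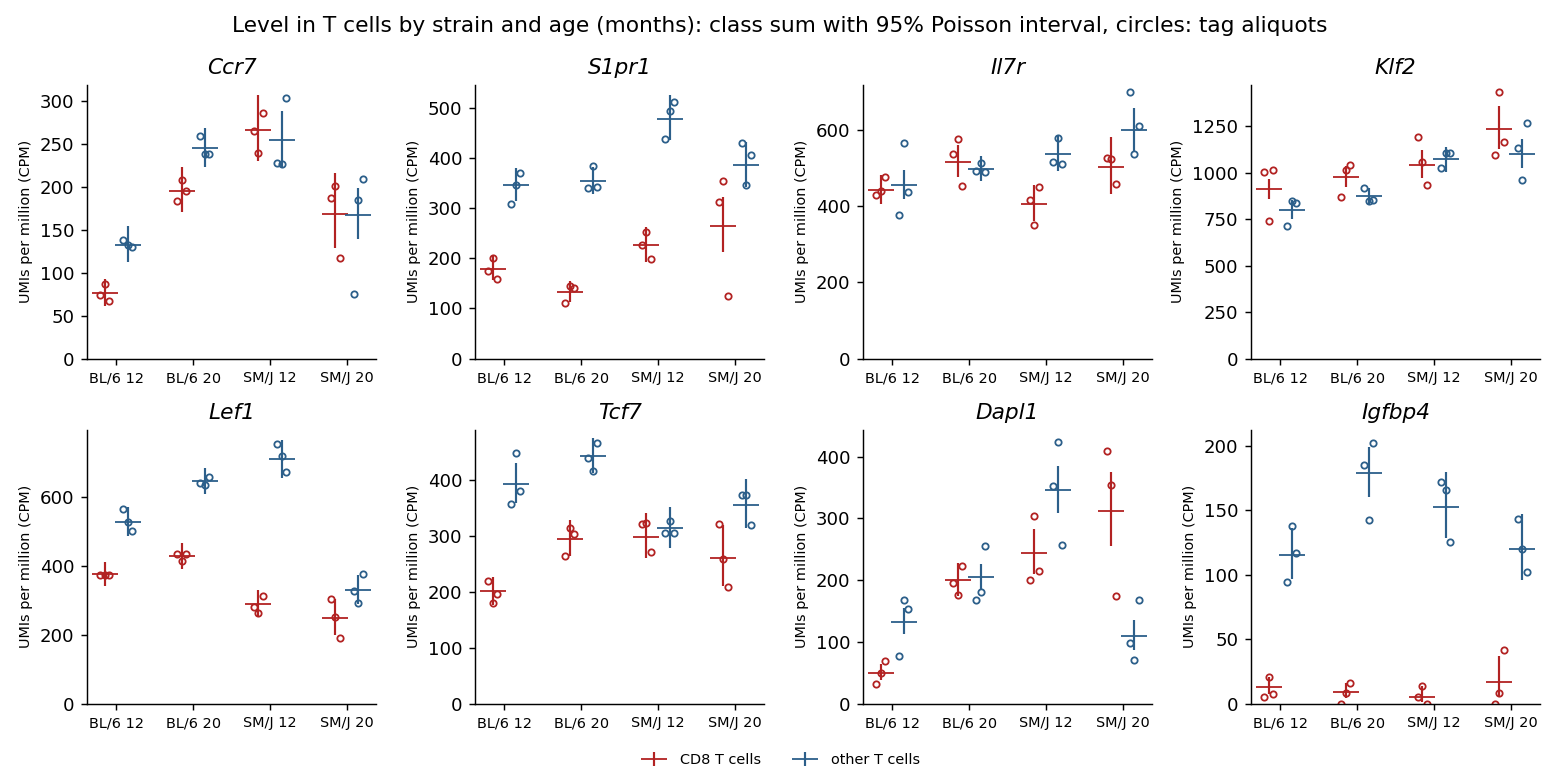
Level of each gene (CPM, linear axis from 0) in CD8 T cells and other T cells of the 4 libraries; dashes are class sums with 95% Poisson intervals and circles are the 3 tag aliquots. Ccr7 and Dapl1 are low in CD8 T cells of BL/6 12, Lef1 is low in other T cells of SM/J 20, and Igfbp4 is near 0 in CD8 T cells throughout.

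In BL/6 the median ratio of the 8 genes for 20 over 12 months was above 0 in both T classes. Among CD8 T cells of BL/6, 7 members were abundant enough to be compared (at least 50 UMIs in both libraries together and a mean of 20 CPM), and 2 of them, Ccr7 and Dapl1, were at least 1.5-fold higher at 20 months, where 5.12% of 5293 genes were. Both had aliquots apart, as 3.25% of genes did. None was 1.5-fold lower, where 12.2% of all genes were. Of the other T cells' members in BL/6, Ccr7, Igfbp4 and Dapl1 were higher, which is 3 of 8 against 2.89% of 5434 genes. Ccr7 and Igfbp4 had aliquots apart, as 2.04% of genes did, and none was lower, where 5.85% were. The median ratio of the 8 genes was 0.20 in CD8 T cells and 0.23 in other T cells, beside -0.12 and -0.057 over all genes compared. All 8 ratios were above 0 in other T cells, although those of S1pr1 (0.03, -0.15 to 0.21) and Il7r (0.13, -0.03 to 0.28) had intervals that included 0. The sign of S1pr1 changed in 4 of 17 alternative settings. Among other T cells without a Ccl5 UMI, described below, S1pr1 and Klf2 were lower at 20 months. Summed NK markers were lower at 20 months, at 30.7 against 190 CPM in CD8 T cells and 21.2 against 116 CPM in other T cells, and their part in these ratios was not tested. Summed monocyte markers in CD8 T cells were 108 CPM at 12 and 396 CPM at 20 months, or 108 and 103 CPM without the 1 cell of high monocyte markers, and the ratios of Ccr7 and Dapl1 without it were 1.39 and 2.03.

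In SM/J the median ratio of the 8 genes was below 0 in other T cells and above 0 in CD8 T cells. Of the other T cells' 8 members, Ccr7, Lef1 and Dapl1 were at least 1.5-fold lower at 20 months with aliquots apart, where 3.09% of 4208 genes were lower to that extent and 1.83% also had aliquots apart. Lef1 and Dapl1 passed without the T cells of high monocyte markers, and Ccr7 did not. None was higher, where 12.4% of genes were. The median of the 8 genes was -0.33 beside 0.11 over all genes, and it ran from -0.49 to -0.10 over the alternative settings. In CD8 T cells only Ccr7 of 7 members passed 1.5-fold, being lower with aliquots apart, where 6.96% of 2815 genes were lower and 3.62% lower with aliquots apart. Its ratio there was -0.57 without the T cells of high monocyte markers, short of 1.5-fold. None of the 7 was higher, where 7.21% were, and the median of the 8 genes was 0.23 beside -0.013, or -0.27 with cells thinned to 1000 UMIs. Summed monocyte markers in other T cells were 498 CPM at 12 and 894 CPM at 20 months, or 180 and 151 CPM without the T cells that carried at least 4 such UMIs. In CD8 T cells they were 112 and 629 CPM in SM/J, or 112 and 133 CPM without those cells.

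Between strains, Dapl1 was higher in SM/J other T cells at 12 months and lower at 20 months, and in CD8 T cells it was higher at both ages. At 12 months Ccr7 and Dapl1 were higher in SM/J in both classes with aliquots apart, at log2 ratios of 1.79 (1.44 to 2.16) and 2.28 in CD8 T cells and 0.93 (0.64 to 1.23) and 1.38 (1.10 to 1.66) in other T cells. Genes at least 1.5-fold higher in SM/J were 7.22% of 4751 in CD8 T cells and 6.07% of 4946 in other T cells, and 5.64% and 4.37% with aliquots apart. No member compared was 1.5-fold lower, where 20.8% and 16.5% of genes were. Igfbp4 in CD8 T cells, too sparse to be compared, had 4 UMIs in SM/J and 16 in BL/6. Summed NK markers also differed, at 190 CPM in BL/6 12 against 13.6 CPM in SM/J 12 in CD8 T cells and 116 against 32.0 CPM in other T cells, and their part in these ratios was not tested. At 20 months Lef1 and Dapl1 were lower in other T cells of SM/J, at -0.97 (-1.17 to -0.77) and -0.91 (-1.27 to -0.56), where 8.72% of 5449 genes were lower to that extent, 6.44% with aliquots apart. None was higher, where 13.1% were. The Dapl1 ratio was -0.73 without the T cells of high monocyte markers, and its aliquots overlapped. Of the 7 members compared in CD8 T cells at 20 months Lef1 was lower with aliquots apart, where 14.4% of 3745 genes were lower and 8.89% lower with aliquots apart. Dapl1 (0.64, 0.30 to 0.97, or -0.05 with cells thinned to 1000 UMIs) and S1pr1 were higher with overlapping aliquots, where 9.51% of genes were higher and 4.41% higher with aliquots apart. The medians of the 8 genes at 12 and 20 months were 0.26 and 0.15 in CD8 T cells and 0.42 and -0.43 in other T cells, beside -0.18, -0.028, -0.14 and 0.054 over all genes. The 20-month median in CD8 T cells had no stable sign, being -0.04 over the 7 members compared, without the sparse Igfbp4, and -0.16 with cells thinned to 1000 UMIs. In other T cells the 20-month median was -0.033 with cells so thinned, and the 12-month median was 0.15 with mixed cells and doublet calls kept. The age comparison of a strain and the strain comparisons share libraries and are not independent of each other.

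**Figure D3:**
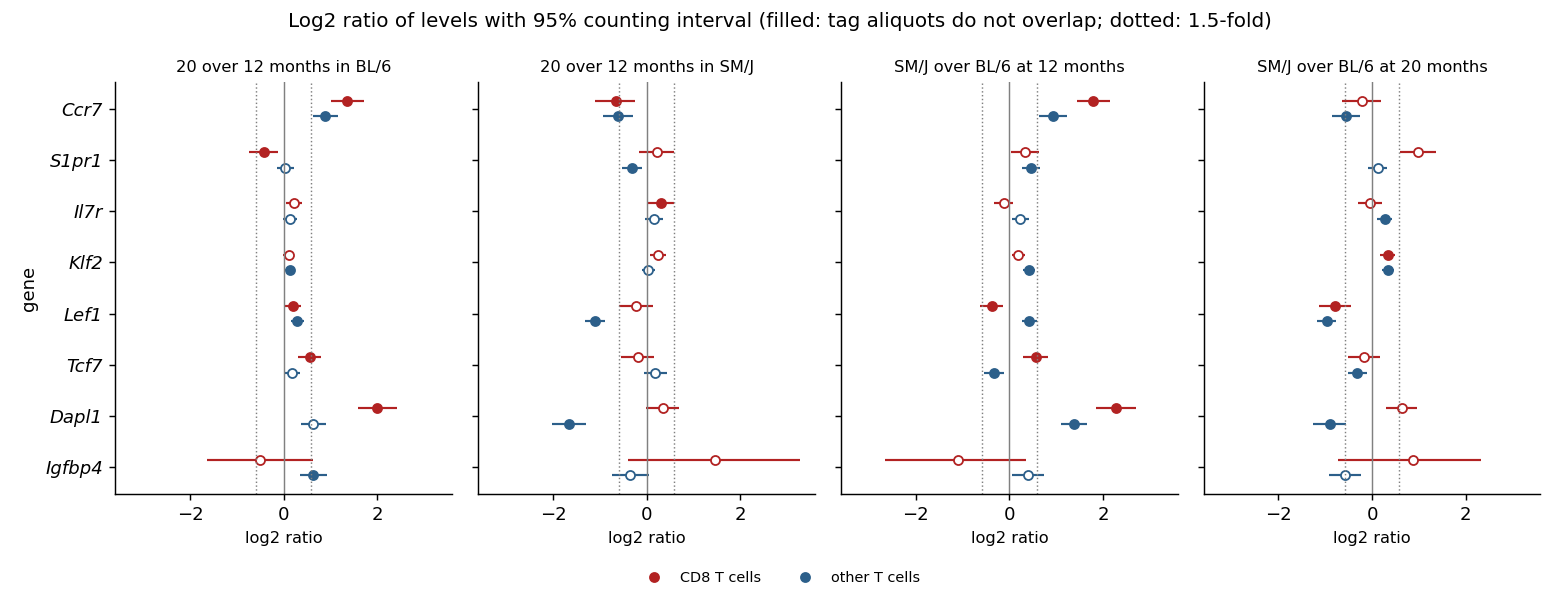
Log2 ratio of levels (x axis) for each gene (rows) in CD8 and other T cells under 4 comparisons, with 95% counting intervals; filled points have tag aliquots that do not overlap, and dotted lines mark 1.5-fold. Ccr7 lies right of 0 in BL/6 and left of 0 in SM/J for 20 over 12 months, and the wide Igfbp4 bars are the CD8 T cells with few UMIs.

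B cells, which read Ccr7, S1pr1 and Klf2, held their lowest Ccr7 in SM/J 20. It stood at 146 CPM in BL/6 12 (aliquots 128 to 162), 163 in BL/6 20 (153 to 179), 105 in SM/J 12 (95.8 to 113) and 23.3 in SM/J 20 (20.0 to 26.6). The log2 ratio of 20 over 12 months was -2.13 in SM/J (-2.32 to -1.94) and 0.16 in BL/6 (0.03 to 0.30), where 13.2% of 5434 and 0.948% of 5589 genes compared were at least 1.5-fold lower. The ratio of SM/J over BL/6 at 20 months was -2.76 (-2.94 to -2.57), where 28.9% of 5588 genes were lower to that extent. S1pr1 and Klf2 did not follow Ccr7, and their ratios with age in B cells were -0.44 and -0.39 in SM/J and -0.51 and -0.39 in BL/6.

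Ccl5, a chemokine transcript of memory and effector CD8 T cells and of NK cells, was used to divide the CD8 class. A Ccl5 UMI was found in 92.4% of CD8 T cells of BL/6 12, 85.0% of BL/6 20, 29.7% of SM/J 12 and 78.6% of SM/J 20, and in 1.73% to 4.27% of B cells at median depths of 3487.5 to 8901 UMIs. By contrast, Nkg7, a granule gene, was found in 95.2%, 89.5%, 87.4% and 89.3% of CD8 T cells in library order, so that the low share of SM/J 12 was one of Ccl5 and not of Nkg7. In BL/6 12 the cells with Ccl5 held 36.4 CPM of Dapl1 and 63.3 CPM of Ccr7, and the 16 cells without it held 215 and 237 CPM. In BL/6 20 the cells with Ccl5 held 189 CPM of each, and the 20 cells without it held 294 and 252 CPM. Within the CD8 T cells that had Ccl5 the log2 ratio of 20 over 12 months was 2.35 for Dapl1 (1.87 to 2.85) and 1.56 for Ccr7 (1.17 to 1.97). Within the cells without Ccl5 it was 0.45 (-0.38 to 1.31) and 0.09 (-0.75 to 0.95), from few cells. Divided by Nkg7 in place of Ccl5, the Ccr7 ratio was 1.29 in cells with the gene (0.92 to 1.66) and 1.95 in those without (0.41 to 3.89, 24 against 4 UMIs), so that the Ccr7 values of the smaller group depended on the dividing gene. The Dapl1 ratio was 2.18 with Nkg7 (1.74 to 2.63) and -0.04 without (-1.29 to 1.27). Lef1 was also lower in BL/6 CD8 T cells with Ccl5 than in those without, at 328 against 958 CPM at 12 months and 385 against 789 CPM at 20 months. In SM/J the cells without Ccl5 held less Lef1 than those of BL/6, at 310 CPM in SM/J 12 and 209 CPM in SM/J 20. At 12 months this gap depended on the dividing gene, as the few cells without Nkg7 held 588 CPM of Lef1 in BL/6 12 (388 to 856, 10 cells) and 538 CPM in SM/J 12 (386 to 730, 14 cells), with overlapping intervals. At 20 months the gap was present under either gene, and the cells without Nkg7 held 875 CPM in BL/6 (671 to 1121, 14 cells) and 138 CPM in SM/J (37.6 to 353, 6 cells). Dapl1 in SM/J was at similar levels in both, 262 CPM with and 239 CPM without it at 12 months, and 313 and 307 CPM at 20 months.

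**Figure D4:**
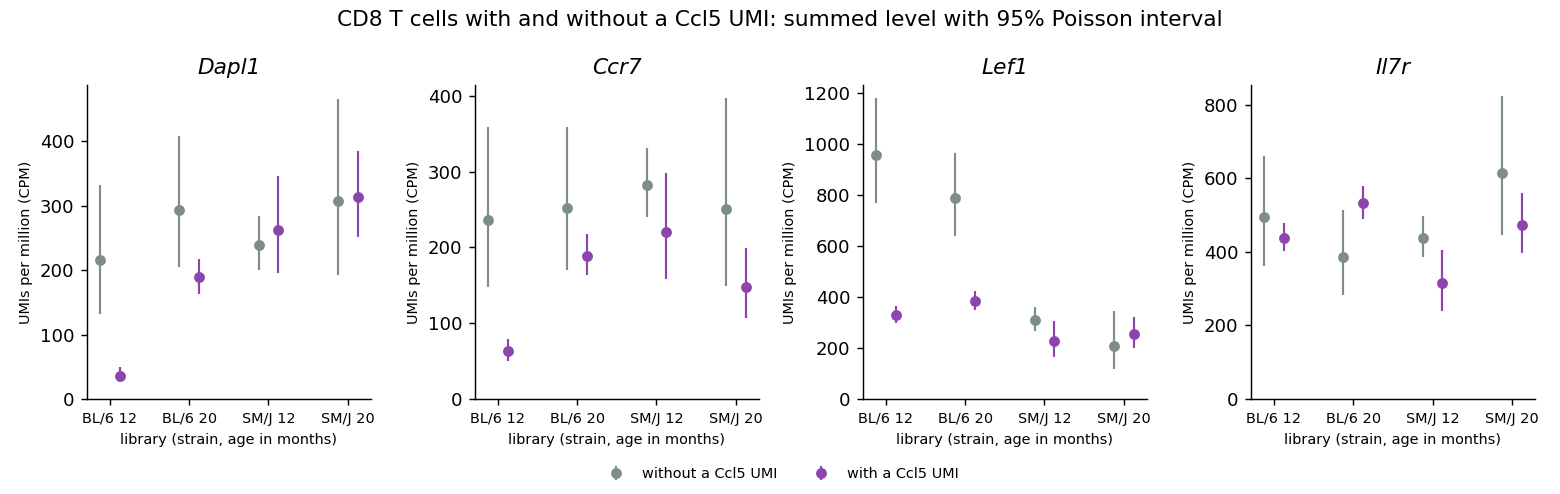
Level (CPM, with 95% Poisson intervals) of Dapl1, Ccr7, Lef1 and Il7r in CD8 T cells with and without a Ccl5 UMI in each library. In BL/6 12 the cells with Ccl5 are far below those without for Dapl1, Ccr7 and Lef1; for Dapl1 the points are close in both SM/J libraries.

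Within single cells of BL/6 12, Dapl1 was found with less Ccl5. There 16 of 22 CD8 T cells with a Dapl1 UMI had Ccl5 (72.7%, exact interval 49.8% to 89.3%), at a median of 9.5 Ccl5 UMIs, against 178 of 188 without Dapl1 (94.7%) at a median of 59. The median depth of these cells was 8088.5 UMIs with Dapl1 and 4662.5 without. In BL/6 20, 74 of 84 CD8 T cells with Dapl1 had Ccl5 (88.1%, 79.2% to 94.1%) at a median of 41 UMIs, and 39 of 49 without Dapl1 did (79.6%) at a median of 36. Their median depths were 9044 and 6041 UMIs, so that those with Dapl1 were also the deeper ones. Dapl1 and abundant Ccl5 were therefore often read in the same CD8 T cell of BL/6 20. In SM/J the shares with Ccl5 were 30.0% of 50 cells with Dapl1 and 29.5% of 61 without at 12 months, and 77.8% of 36 and 80.0% of 20 at 20 months. Among other T cells of BL/6 12, Ccl5 was found in 2 of 53 cells with Dapl1 (3.77%) and in 77 of 167 without it (46.1%). The shares were 8.53% of 129 cells with Dapl1 and 23.7% of 241 without in BL/6 20, and 3.12% of 96 and 17.9% of 134 in SM/J 12. In SM/J 20 they were 26.7% of 30 cells with Dapl1 (12.3% to 45.9%) and 20.1% of 134 without (13.7% to 27.9%), with intervals that overlap, so that no difference in either direction was detectable there. At 1000 UMIs per cell, 3 or more of the 8 genes were seen in 16.7%, 31.6%, 36.9% and 30.4% of CD8 T cells and in 40.0%, 43.8%, 47.4% and 37.8% of other T cells, in library order.

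The other T class was divided by Cd4 and by Ccl5. A Cd4 UMI was found in 37.4% to 47.6% of its cells, against at most 0.508% of B cells. A UMI of Foxp3, the regulatory T cell factor, was found in 2.70% to 3.66%. The lower Lef1 of SM/J 20 than of SM/J 12 appeared both with Cd4 (log2 ratio -1.18, -1.50 to -0.86) and without (-1.08, -1.38 to -0.78), and so did the lower Dapl1 (-1.23 and -1.95). Other T cells with Ccl5 were 35.9% in BL/6 12, 18.4% in BL/6 20, 11.7% in SM/J 12 and 21.3% in SM/J 20. Among those without Ccl5 the SM/J ratios of 20 over 12 months were -0.97 for Lef1 (-1.21 to -0.75), -1.62 for Dapl1 (-2.02 to -1.24) and -0.47 for Ccr7 (-0.82 to -0.14), close to the undivided values. The BL/6 ratios among those without Ccl5 were 0.45 for Ccr7 (0.17 to 0.73) and 0.09 for Dapl1 (-0.18 to 0.37), where the undivided values were 0.88 and 0.63. S1pr1 (-0.34, -0.53 to -0.14) and Klf2 (-0.21, -0.34 to -0.09) were lower there. Lef1, Tcf7 and Il7r were below 0 and Igfbp4 above it, with intervals that included 0. Among BL/6 cells with Ccl5 the ratios were 1.95 for Ccr7 (1.09 to 2.87, 44 against 15 UMIs) and 4.08 for Dapl1 (2.33 to 5.92, 31 against 2 UMIs). S1pr1 and Klf2 were at 0.68 and 0.73 in those cells. Among SM/J cells with Ccl5, Dapl1 was at 72.9 CPM at 12 and 64.8 CPM at 20 months (-0.17, -1.49 to 1.21, 13 against 9 UMIs), too few UMIs to place it beside the -1.62 of the cells without Ccl5. The ratio there was -0.40 for Ccr7 (-1.53 to 0.77) and -1.07 for Lef1 (-1.75 to -0.39). Without the T cells of high monocyte markers, the SM/J ratios among those without Ccl5 were -0.86 for Lef1, -1.47 for Dapl1 and -0.36 for Ccr7, each with an interval below 0.

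Other genes of the naive state were taken from a list of partners, and their direction varied between comparisons. Of its 15 genes, 13 were compared in CD8 T cells of BL/6, and Satb1, Bach2 and Foxp1 were at least 1.5-fold higher at 20 months with aliquots apart, with none lower and a median of 0.50, where 3.25% of all genes were higher with aliquots apart and 12.2% were lower. Bach2, a repressor of effector differentiation, stood at 376 CPM at 12 and 691 CPM at 20 months (log2 ratio 0.88, 0.71 to 1.04), and Foxp1, a factor of T cell quiescence, at 852 and 1366 CPM (0.68, 0.57 to 0.79). Among other T cells of SM/J, 3 of 12 partners were lower at 20 months with aliquots apart (Bach2, Foxp1 and Actn1) and none was higher, with a median of -0.25, where 1.83% of all genes were lower with aliquots apart and 12.4% were higher. Without the T cells of high monocyte markers 2 were lower (Foxp1 and Actn1), 1 was higher with overlapping aliquots (Nsg2) and the median was -0.11. Foxp1 there was at 1011 CPM at 12 and 641 CPM at 20 months (-0.66, -0.82 to -0.50). None of 11 partners passed 1.5-fold with age in CD8 T cells of SM/J. In other T cells of BL/6, Actn1, Pik3ip1 and Ramp1 were higher at 20 months, which is 3 of 13 with aliquots apart against 2.04% of all genes, and none was lower, where 5.85% were (median 0.40). Between strains at 12 months, Nsg2, Pik3ip1 and Rflnb were higher in SM/J CD8 T cells, 3 of 12 against 7.22% of all genes, and none was lower (median 0.47). In other T cells at that age, where Ccr7 and Dapl1 were higher in SM/J, none of 13 partners was higher and Actn1 and Nsg2 were lower, as 16.5% of all genes were (median 0.09). At 20 months 6 of 14 were lower in other T cells of SM/J with aliquots apart (Satb1, Bach2, Foxp1, Actn1, Nsg2 and Pik3ip1), where 6.44% of all genes were, and Id3 was higher (median -0.54). In CD8 T cells at that age Nsg2 was higher and Bach2 and Actn1 were lower, of 12 compared (median -0.06), where 9.51% of all genes were higher and 14.4% lower, so that these shares were near the background. Leaving out the T cells of high monocyte markers kept those 6 lower, with Rflnb higher in place of Id3, and put Foxp1 in place of Bach2 among the CD8 genes.

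Genes of memory and effector T cells were counted from a list of 18. Of these, in BL/6 CD8 T cells, 11 of 16 compared were lower at 20 months with aliquots apart, as 9.07% of all genes were, and 1, the transcription factor Eomes, was higher (87.7 against 52.9 CPM). S100a4, a calcium-binding protein of effector cells, stood at 453 CPM in BL/6 12, 85.1 in BL/6 20, 25.8 in SM/J 12 and 118 in SM/J 20. Tbx21, the effector factor T-bet, stood at 109, 51.8, 13.6 and 16.8 CPM. The median ratio was -0.85 with age in BL/6 and -1.64 for SM/J over BL/6 at 12 months, where 11 of 16 were lower with aliquots apart, as 15.7% of all genes were, and none was higher. Summed NK markers in these CD8 T cells were 190 CPM in BL/6 12, 30.7 in BL/6 20 and 13.6 in SM/J 12, and their part in these counts was not tested. Of the other T cells' list in SM/J, 9 of 15 were higher at 20 months, 8 of them with aliquots apart, as 7.6% of all genes were, and none was lower, with a median of 0.77. Without the T cells of high monocyte markers 10 were higher, 8 with aliquots apart, and the median was 0.95. In CD8 T cells of SM/J 5 of 12 were higher at 20 months, where 7.21% of all genes were, but 1 alone with aliquots apart, and none was lower (median 0.44). In other T cells of BL/6 5 of 15 were lower at 20 months, where 5.85% of all genes were, and none was higher (median -0.42). SM/J other T cells at 12 months had 11 of 16 lower than BL/6, where 16.5% of all genes were, and none higher (median -0.81). At 20 months the strains gave a mixed picture, with 5 of 14 lower in SM/J CD8 T cells, 2 of them with aliquots apart (14.4% and 8.89% of all genes; median -0.28). In other T cells at that age 6 of 16 were higher and Tox was lower, where 13.1% of all genes were higher and 8.72% lower (median 0.37). Among the genes higher with age in SM/J other T cells was Cd44, the adhesion receptor of antigen-experienced T cells, at 101 CPM at 12 and 304 CPM at 20 months (1.57, 1.23 to 1.93; 1.43 without those cells).

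Partners in the members' own pathways were counted next. Of 8 interleukin 7 signalling genes, 6 were compared in BL/6 CD8 T cells, and Socs1 was higher (59.7 against 24.9 CPM) and Cish lower (10.5 against 40.1 CPM) at 20 months, both of them feedback inhibitors of cytokine receptors. In other T cells none of 6 passed 1.5-fold with age in BL/6, and Socs1 alone did in SM/J, being higher, where 12.4% of all genes were. In the BL/6 CD8 comparison 5.12% of all genes were higher and 12.2% lower. Between strains at 12 months, Socs1 was higher and Cish lower in SM/J CD8 T cells, where 7.22% of all genes were higher and 20.8% lower. At 20 months Socs1 was higher and Stat5a lower in SM/J other T cells, where 13.1% were higher and 8.72% lower. These 4 strain calls had aliquots apart. The shared receptor chain Il2rg, the kinase Jak1 and the survival factor Bcl2 stayed under 1.5-fold in all 4 comparisons in both T classes. Cd69, which holds S1pr1 inside the cell, was at 277 CPM in CD8 T cells of BL/6 12 and 502 CPM in those of BL/6 20 (0.86, 0.66 to 1.05, aliquots apart), where S1pr1 was at 179 and 132 CPM. It was also higher in CD8 T cells of SM/J 12 than of BL/6 12 (454 against 277 CPM, aliquots apart), where S1pr1 was higher too, at 226 against 179 CPM. S1pr4, another of the egress partners, was lower in that comparison with aliquots apart, as 15.7% of all genes were. The related factors Klf3, Klf6 and Klf13 stayed under 1.5-fold in every comparison, as Klf2 did. Tle3, a co-repressor that binds Tcf7 and Lef1, was lower in SM/J at both ages in both T classes with aliquots apart. It stood at 60.1 and 52.6 CPM in CD8 T cells of BL/6 12 and 20 against 24.5 and 25.3 in SM/J, and at 59.3 and 57.0 against 25.6 and 33.7 CPM in other T cells. Genes lower in SM/J were common, at 20.8% and 14.4% of all genes in CD8 T cells and 16.5% and 8.72% in other T cells at 12 and 20 months. Ctnnb1, the beta-catenin that binds both factors, was lower in SM/J at 12 months in both classes with overlapping aliquots, so that 2 of 3 TCF and LEF co-factors compared were lower there, with medians of -0.90 in CD8 T cells and -0.68 in other T cells. Tle4, a related co-repressor, was lower at 20 than at 12 months in other T cells of SM/J (157 against 246 CPM, aliquots apart). Il7 itself did not exceed 1.60 CPM in either T class.

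Likeness to the members was read across the 20 points of 5 classes by 4 libraries, as Pearson's r between a gene's log2(CPM + 1) and the mean z-score of the 8 genes, among 5451 genes. The 10 highest were Gramd3 (r = 0.96), A930005H10Rik, Srpk1, Crbn, Rapgef6, Gm36279, Cd5, Rps16, Rplp2 and Gtf2i (0.94). The points share libraries, and the values are a description with no test. Klf2 correlated least with the mean among the members (0.44). Over the 8 T cell points alone, Ccr7 followed Dapl1 most closely (r = 0.86) and S1pr1 followed Igfbp4 (0.87), while r was 0.11 between Lef1 and Dapl1. These points share libraries and depth in pairs. Igfbp4 and S1pr1 were both lower in CD8 than in other T cells of every library, so that their r includes the gap between the classes. Igfbp4 also had few UMIs in CD8 T cells.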

How the data were processed

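Peripheral blood mononuclear cells of 4 strain and age groups were profiled by 10x Genomics 3' sequencing. The values are whole UMI counts, not normalized, as deposited. Per the file headers, Cell Ranger 7.0.1 wrote the matrices. The submitters' processing notes name Cell Ranger, Seurat 4.3.0 and mm10. Reads of SM/J set against a reference of another strain can be lost, which touches strain comparisons most. Cells with at least 500 UMIs, at least 200 genes, at most 10% mitochondrial UMIs and no Scrublet call (scanpy 1.11.5, expected rate 0.06) were kept, namely 3398, 3102, 2407 and 2689. B cells needed 3 UMIs of a marker set with Cd79a, Cd79b and Ms4a1, NK cells 2 of Ncr1, Klrb1c and Klre1, and monocytes 4 of Lyz2, Csf1r, Cd68 and Ms4a6c with under 2 of Prg4 and Alox15. Cells passing several gates were left out, but T cells with 2 or more UMIs of Prg4 and Alox15 were kept whatever their monocyte markers. Counts were summed per class and library and compared as log2 of CPM + 1, with exact Poisson, conditional binomial or Clopper-Pearson 95% intervals. These cover counting error only. With 1 library per group there was no test. A gene was compared with at least 50 UMIs in both libraries together and a mean of 20 CPM. All 8 members are named. Of the listed partners, those past 1.5-fold with aliquots apart could be named, and others (Il2rg, Jak1, Bcl2, Il7, Id3, Ctnnb1, the Klf relatives) were named after they were seen. Members and lists were chosen with earlier results of these data known. Scripts were tested on simulated data. TMM factors came from edgeR 4.0.16, and gene positions from GENCODE. Ccl19 and Ccl21a, each on several rows, are not analysed here. Some items are not reported here.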

Additional observations from a re-analysis of the deposited data

Results flagged for a closer look

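Ccr7 in CD8 T cells had a log2 ratio of 20 over 12 months of 1.35 in BL/6 and -0.66 in SM/J, a difference of -2.01 (SM/J minus BL/6). It stood out because every tag aliquot at 20 months was above every aliquot at 12 months in one strain and below in the other. In other T cells the ratios of Ccr7 were 0.88 and -0.60, a difference of -1.49, with the same separation of aliquots. Lef1 in other T cells had ratios of 0.29 and -1.11, a difference of -1.40, also with aliquots apart in opposite directions. None of these 3 differences was tested, since each strain and age is 1 library, and a strain difference cannot be told apart from one between 10x runs. Without the 8 T cells of high monocyte markers the SM/J aliquots remained separated for all 3, at ratios of -0.57, -0.46 and -0.98.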

How the results depend on the processing

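Of 140 alternative values of the 8 median ratios, 123 stayed within the spread of aliquots and 17 moved beyond it, of which 1 (SM/J, age, CD8 T cells, thinned) also changed sign. Counting shifts within that spread, the sign changed in CD8 T cells for SM/J with age and for the strains at 20 months, with thinning (-0.27 and -0.16) and a mitochondrial limit of 5% (-0.12 and -0.084). For the strains at 20 months it also changed over the 7 members compared (-0.041), a choice made after seeing the data. Of 1088 values for single genes, 1023 stayed, 61 moved and 4 were reversed. Of 64 shares of cells with a UMI, 50 left their interval with cells thinned to 500 in place of 1000 UMIs. Thinning cells to 1000 UMIs gave medians of 0.65 (BL/6, age) and -0.27 (SM/J, age) in CD8 T cells, and -0.14 (SM/J, age) and -0.033 (strain, 20 months) in other T cells. Weighting cells equally gave 0.44 (BL/6, age, CD8 T cells), and -0.16 (SM/J, age) and -0.24 (strain, 20 months) in other T cells. TMM scaling gave 0.39 (strain, 12 months, CD8 T cells), and -0.49 (SM/J, age) and -0.57 (strain, 20 months) in other T cells, and it shifted the median of all genes by -0.15 to 0.13. Keeping mixed cells and doublet calls gave, in other T cells, -0.10 (SM/J, age), 0.15 (strain, 12 months) and -0.57 (strain, 20 months). For the last, a Cd3 sum of at least 1 gave -0.60, and leaving out the 8 T cells of high monocyte markers, a choice made after seeing the data, gave -0.28. Leaving out 1 aliquot at a time gave 0.22 to 0.38 for the strain median at 12 months in CD8 T cells and -0.47 to -0.33 for that at 20 months in other T cells. In CD8 T cells it gave 0.024 to 0.24 (SM/J, age) and 0.0071 to 0.20 (strain, 20 months). Counts of members past the fold limit at 2-fold instead of 1.5-fold were 0 (SM/J, age) and 0 (strain, 20 months) in CD8 T cells, and 0 (BL/6, age), 1 (strain, 12 months) and 0 (strain, 20 months) in other T cells. In SM/J CD8 T cells with age the count was 2 with no filter on low counts and 0 without the 8 cells, and TMM scaling gave 4 for other T cells at 20 months between strains. Dividing CD8 T cells of BL/6 12 by Nkg7 in place of Ccl5 gave a median ratio of 0.44 for cells without over cells with the gene, in place of 1.44. Igfbp4 in CD8 T cells was reversed at thinning (-3.09, strain, 20 months), and without 1 aliquot it ran from -0.90 to 1.76 for that comparison and from -0.30 to 2.61 for age in SM/J, from 10 or fewer UMIs a library. Dapl1 was reversed at thinning between strains at 20 months (-0.051). Ccr7 in SM/J other T cells with age was -0.27 with mixed cells kept. The cause of these shifts was not tested. No paired analysis was possible because each group is 1 library and its tags carry no number shared with another group. Depth limits the CD8 class of SM/J 20, with 56 cells the smallest T class, the NK cells, and all shares of cells with a UMI.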

Other observations

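Split after the Ccr7 levels of B cells were seen, the 754 B cells of SM/J 20 with a UMI of Zcwpw1, a gene abundant in an SM/J B cell population, held 27 Ccr7 UMIs (2.57 CPM), and the 616 without held 301 (84.1 CPM). Klf2 differed little between them, at 1383 and 1492 CPM. A Zcwpw1 UMI was found in 55.0% of B cells of SM/J 20 and in 3.86% to 6.41% of B cells elsewhere. Lef1, which is also a factor of early B cell development, stood at 25.4 CPM in B cells of SM/J 12 and 1.99 CPM in those of SM/J 20. In SM/J 12 the 410 B cells with a Fras1 UMI held 39.6 CPM of Lef1 and the 806 without held 12.4 CPM. In SM/J 20 no such excess was seen, at 1.56 CPM in 361 cells with a Fras1 UMI (8 Lef1 UMIs) and 2.23 CPM in 1009 without (20 UMIs).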
